A study of Mus musculus with 2 samples.

Results

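The forkhead (Fox) and Sox genes other than the best known foregut factors were followed through single cells of the mouse esophagus at E18.5. Members were the genes whose symbol was Fox with a letter and a number, or Sox with a number, leaving out Foxa1, Foxa2, Foxe1, Foxi1, Foxj1 and Sox2. Of 63 such genes among the 32285 in the count tables, 57 were members, 39 of them Fox and 18 Sox genes. The measured tissue was the esophageal epithelium of C57BL/6 embryos, profiled in droplets by counting 3' ends of transcripts, with 1 library per group. The control library, called wild type here after its title, has the genotype p63-CreER in the labels, and the p63-KO library has p63-CreER/p63-CreER, so that both groups carried this allele. Controls were littermates, and the labels name no treatment. Muscle was pulled off by hand before the epithelium was taken apart with enzymes, and this step can set how many stromal cells each library holds.

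Forkhead proteins bind DNA through a winged-helix domain, and Sox proteins bend DNA through an HMG box related to that of the sex-determining factor Sry. Both families are split into lettered groups whose members have similar DNA-binding domains and often overlap in use. Several members are tied to layers of an organ: FoxF genes act in gut mesenchyme below a Hedgehog-secreting epithelium, SoxF genes in vessels, SoxE genes in neural crest, glia and cartilage, and Foxp1, Foxp2 and Foxp4 in lung and foregut. FoxO factors are held in the cytoplasm by insulin and Akt signalling, and Foxm1 drives genes of mitosis. The gene disrupted here, Trp63, encodes p63, a relative of p53 on which stratified epithelia depend.

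After filtering, 5519 wild-type and 2375 p63-KO cells remained, of which 5367 (97.2%) and 1677 (70.6%) were epithelial-like. All 10 fixed epithelial markers were found in at least 25% of these cells in each library, and their summed level was 14529 CPM (UMIs, unique molecular identifiers, scaled to a common total per group of cells) in wild type against 11990 CPM in p63-KO. The 9 fibroblast markers summed to 44.0 and 567 CPM in these cells. Median depth was 11048 UMIs per wild-type and 25281 per p63-KO epithelial-like cell. The p63-KO library also held 516 fibroblast-like, 73 smooth muscle or pericyte-like, 70 endothelial-like and 17 immune-like cells, while the wild-type library held 11 fibroblast-like cells. Each library held cells with Xist and cells with Y-linked RNA and was therefore a pool of embryos, and 8 cell barcodes occurred in both libraries. Trp63 itself had 302 CPM in wild-type and 118.5 CPM in p63-KO epithelial-like cells, and 3' counts need not reveal an insertion elsewhere in the gene. There were no replicates, so no difference was tested. Intervals in parentheses are exact 95% intervals (Poisson for levels, conditional binomial for folds, Clopper-Pearson for shares) and cover counting error only.

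The upstream sequences of 4 members are shown because these genes were lower in, or counted only in, the p63-KO epithelium and have an entry in the RefSeq promoter table (GRCm38.p6). Each is read 5′ to 3′ on the gene's own strand, covers up to 250 bases before the RefSeq start, and stops where a GENCODE M21 gene begins. Capitals mark a match to a searched motif. Sox6 lies at chr7:116038797-116038994 (minus strand), Sox15 at chr11:69654787-69655036 (plus), Foxn1 at chr11:78386609-78386858 (minus) and Foxi2 at chr7:135410117-135410307 (plus).
Sox6: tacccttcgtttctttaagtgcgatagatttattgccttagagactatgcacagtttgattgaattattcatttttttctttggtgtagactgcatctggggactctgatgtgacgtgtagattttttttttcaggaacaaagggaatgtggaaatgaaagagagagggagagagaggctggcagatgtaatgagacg
Sox15: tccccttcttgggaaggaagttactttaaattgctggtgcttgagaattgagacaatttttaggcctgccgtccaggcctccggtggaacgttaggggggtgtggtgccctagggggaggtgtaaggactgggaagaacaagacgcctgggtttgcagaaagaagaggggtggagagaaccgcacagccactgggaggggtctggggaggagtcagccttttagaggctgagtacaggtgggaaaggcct
Foxn1: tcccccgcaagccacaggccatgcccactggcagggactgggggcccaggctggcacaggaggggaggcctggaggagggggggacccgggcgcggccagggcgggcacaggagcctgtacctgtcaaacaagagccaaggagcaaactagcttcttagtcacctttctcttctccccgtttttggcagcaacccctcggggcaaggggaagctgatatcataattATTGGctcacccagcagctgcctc
Foxi2: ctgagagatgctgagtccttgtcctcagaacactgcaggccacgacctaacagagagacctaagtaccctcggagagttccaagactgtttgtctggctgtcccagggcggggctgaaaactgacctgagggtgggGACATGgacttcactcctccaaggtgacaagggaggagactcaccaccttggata
The searched letters, on both strands, were GACATG (part of the sequence bound by p53-family factors), CCAAT (the CCAAT box), TGTTTAC (forkhead) and AACAAT (Sox), and none of these is contained in another. GACATG was found once in the Foxi2 stretch, 114 bases before the start, and in none of the other 3. ATTGG, which is CCAAT on the other strand, was found in the Foxn1 stretch. Sox6 and Sox15 held no match to any of the 4, which says only that these letters are not in the stretches shown. The Foxi2 window also had CCAAT, 40 bases before the start, in the bases left out here. Of all 32851 RefSeq windows of 250 bases, 8.17% held GACATG, 33.8% CCAAT, 3.17% TGTTTAC and 9.42% AACAAT. Of the 21 described members with an entry, 1, 9, 1 and 0 held them. A match is a description of letters and not a binding site.

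In the summed epithelial-like cells, 25 of 57 members reached 5 CPM in either library, and the other 32 stayed below. Of the 25, 3 stood 2-fold or more above wild type in p63-KO (Sox5, Foxo3 and Foxj2), against 14% of all 11774 genes measured the same way. Another 4 stood 2-fold or more below it (Sox15, Foxn1, Sox6 and Foxp2), against 7.87% of all genes. The median log2 ratio of p63-KO to wild type, taken with 1 CPM added to each level, was 0.04 for the members and -0.02 for all measured genes. The 3 and the 4 genes are few, and their shares of 12% and 16% are not read as particular to the family. Foxp4 and Sox13 lay just under the 2-fold line, with log2 ratios of 0.92 and 0.84.

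**Figure D1:**
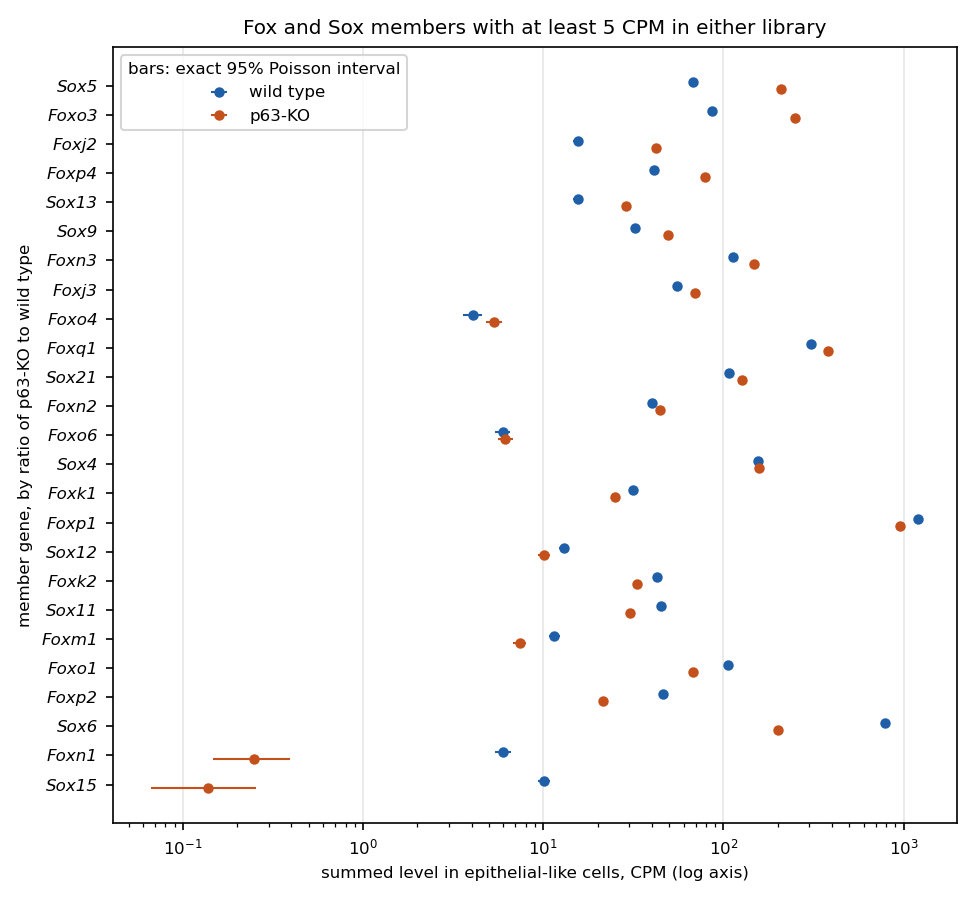
Level in CPM (log axis) of the 25 members with at least 5 CPM, summed over the epithelial-like cells of the wild-type (blue) and p63-KO (orange) library, ordered by their ratio, with exact 95% Poisson intervals. Sox5, Foxo3 and Foxj2 lie farthest to the p63-KO side, and Sox15 and Foxn1 are below 1 CPM in p63-KO.

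Sox6, a SoxD factor that lacks an activation domain of its own and works with partners such as Sox9, was lower in p63-KO. Its gene covers chromosome 7, 115470872 to 116038796 on the minus strand (mm10, GENCODE M21), and overlaps the antisense genes Sox6os and Gm45025. It had 785 CPM (778 to 791) in wild-type against 201 CPM (198 to 205) in p63-KO epithelial-like cells, 3.90-fold lower (3.83 to 3.97), a log2 ratio of -1.96. Over the epithelial subclusters it ran from 141 to 1336 CPM in wild type and from 66.0 to 324 CPM in p63-KO, so that only the wild-type suprabasal and superficial squamous-like subclusters lay within the p63-KO range. Between states that bear the same name in both libraries, Sox6 was 4.24-fold lower in the G2 and mitosis-like cells, 5.56-fold lower in the ciliated-like cells and 1.56-fold lower in the suprabasal squamous-like cells. These states share a name given by markers and were not shown to be the same state. When both libraries were clustered jointly, the clusters led by squamous or mitosis genes and named epithelial-like held wild-type cells, with 4 p63-KO cells beside 342 wild-type cells in 1 of them. The joint ciliated cluster held 26 wild-type cells, fewer than the 54 named ciliated-like within that library. The p63-KO cells named suprabasal squamous-like were led by 2300002M23Rik, Asprv1 and Ecm1, and of their 10 leading genes 2300002M23Rik, Psca and Spns3 also led the wild-type superficial subcluster, while none led the wild-type suprabasal one. Set beside that superficial subcluster, at 141 CPM, these p63-KO cells had more Sox6, 183 CPM (173 to 193).

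Sox15, the only SoxG gene and a close relative of the SoxB1 genes, and Foxn1, the factor of thymic epithelium and hair keratinocytes that is mutated in nude mice, were nearly missing from p63-KO epithelium. Sox15 (chromosome 11, 69655314 to 69656727, plus strand) overlaps Mpdu1 on the other strand. It had 10.1 CPM (9.33 to 10.9) in wild type against 0.139 CPM (0.0664 to 0.255) in p63-KO, 72.7-fold lower (39.3 to 152). Its wild-type subclusters ran from 0.803 to 17.2 CPM, and its p63-KO subclusters from 0 to 1.23 CPM. Foxn1 (chromosome 11, 78357577 to 78386558, minus strand) had 5.98 CPM (5.42 to 6.59) in wild type against 0.249 CPM (0.148 to 0.394) in p63-KO, 24.0-fold lower (15 to 40.9). For Foxn1 no p63-KO subcluster, at 0 to 0.454 CPM, reached the lowest wild-type subcluster, at 1.26 CPM.

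Foxp2, a transcriptional repressor of the FoxP group, had 46.0 CPM (44.4 to 47.6) in wild type against 21.5 CPM (20.5 to 22.6) in p63-KO epithelial-like cells, 2.14-fold lower. Its gene spans chromosome 6, 14901349 to 15441977 on the plus strand. The difference was uneven: Foxp2 was 3.79-fold lower in G2 and mitosis-like cells and 1.92-fold lower in suprabasal squamous-like cells, while in ciliated-like cells it had 26.5 CPM in wild type against 30.2 CPM in p63-KO, with overlapping intervals. Under 12 alternative settings its log2 ratio ran from -1.77 to 0.15 and passed 2-fold in 6. The positive value came from cells chosen by an Epcam or Cdh1 UMI and no Col1a1, Col3a1, Pecam1 or Ptprc UMI, which left 480 p63-KO cells, where 1677 had been, and 5075 wild-type cells. Foxp2 had 968 CPM in the p63-KO fibroblast-like cells, and the p63-KO epithelial level was 2.22% of that. The fibroblast genes Col1a1, Col3a1 and Mfap4 stood in p63-KO epithelial-like cells at 0.332% to 0.421% of their fibroblast level. The part of such stray RNA in the epithelial Foxp2 level was not tested.

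Sox5, the SoxD partner of Sox6, went the other way from Sox6. The gene is the longest of the measured members (953553 bp, chromosome 6, 143828425 to 144781977, minus strand) and overlaps 5 annotated antisense genes, Sox5os1 to Sox5os5. It had 68.0 CPM (66.1 to 70.0) in wild-type against 209 CPM (206 to 213) in p63-KO epithelial-like cells, 3.08-fold higher (2.98 to 3.18). The p63-KO neuroendocrine-like cells alone had 859.9 CPM, and the cells named suprabasal squamous-like had 12.5 CPM in wild type against 124 CPM in p63-KO, 9.87-fold higher (8.30 to 11.8), while the wild-type superficial squamous-like cells had 22.0 CPM. The fold was 2.57 between G2 and mitosis-like and 1.65 between ciliated-like cells. Sox13, the remaining SoxD gene, had 15.6 and 28.7 CPM, 1.85-fold higher in p63-KO (1.71 to 1.99). Between G2 and mitosis-like cells Sox13 was 6.89-fold higher, whereas suprabasal squamous-like cells had 33.9 CPM in wild type against 28.9 CPM in p63-KO.

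Foxo3, a FoxO factor restrained by Akt, had 86.5 CPM (84.3 to 88.7) in wild type against 249 CPM (245 to 253) in p63-KO, 2.88-fold higher (2.80 to 2.97), and lies on chromosome 10, 42181841 to 42276755. It was higher in all 3 states that share a name, by 4.40-fold in G2 and mitosis-like, 2.21-fold in suprabasal squamous-like and 1.55-fold in ciliated-like cells. Its relative Foxo1 stood the other way round, with 106 CPM (104 to 109) in wild type against 67.4 CPM (65.6 to 69.4) in p63-KO. Foxo4 had 4.06 and 5.31 CPM, and Foxo6, which is known chiefly from the brain, 5.96 and 6.17 CPM. Among the FoxO genes the ratio of the libraries was thus largest for Foxo3 and opposite in direction for Foxo1.

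Foxj2, a broadly expressed forkhead activator unlike the cilia regulator Foxj1, had 15.6 CPM (14.7 to 16.6) in wild type against 42.0 CPM (40.5 to 43.5) in p63-KO, 2.69-fold higher (2.51 to 2.89). It lies on chromosome 6, 122819914 to 122845366. The level was even within each library: every wild-type subcluster lay between 13.5 and 18.1 CPM, and 9 of 10 p63-KO subclusters between 23.3 and 49.2 CPM, the exception being ionocyte-like subcluster 7 at 6.70 CPM. Its relative Foxj3 had 55.2 and 69.2 CPM.

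Among the remaining epithelial members the libraries lay closer together. Foxp1, a FoxP repressor of lung and foregut, had 1202 CPM in wild type against 952 CPM in p63-KO. Foxp4, a partner of Foxp1 and Foxp2, had 41.0 CPM (39.5 to 42.6) and 78.5 CPM (76.5 to 80.6), 1.91-fold higher in p63-KO. Foxq1, the gene of the satin coat mutation in mice, had 308 and 381 CPM, and Sox21, a SoxB2 repressor, 108 and 126 CPM. Of the SoxC genes, which act in progenitors of many tissues, Sox4 had 155 and 157 CPM, Sox11 45.2 and 30.2 CPM, and Sox12 13.0 and 10.1 CPM. Sox9, a SoxE factor of cartilage and of gut and airway progenitors, had 32.2 CPM (30.9 to 33.6) and 49.0 CPM (47.4 to 50.6), 1.52-fold higher. Foxn3, linked to cell cycle checkpoints, had 113 and 148 CPM, and its relative Foxn2 39.9 and 44.7 CPM. Foxk1 and Foxk2, which are tied to metabolism and autophagy, had 31.5 and 24.9 CPM, and 42.5 and 33.3 CPM. Foxm1, the mitotic forkhead, had 11.5 CPM (10.7 to 12.3) and 7.38 CPM (6.77 to 8.04).

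Because p63-KO cells were deeper, shares of cells with a UMI were compared after thinning each cell to 2000 UMIs, which left 5280 epithelial-like cells of wild type, 1654 of p63-KO, and 510 p63-KO fibroblast-like cells (median depth before thinning 10809 UMIs). Of the 36 members described by name, 11 had a higher and 6 a lower share in p63-KO with intervals that did not meet. The same count was not made over all genes, so these counts are not read as particular to the family. Sox6 was found in 70.6% (69.4 to 71.8) of wild-type and 28.2% (26.1 to 30.5) of p63-KO cells, while without thinning the shares were 94.9% and 81.6%. In fibroblast-like cells the Sox6 share was 1.76% thinned. Sox5 was found in 13.3% (12.4 to 14.3) and 35.4% (33.1 to 37.8), against 11.6% of fibroblast-like cells, and in 36.2% and 87.8% unthinned. Foxo3 was found in 13.8% and 33.6%, against 17.6% of fibroblast-like cells, and in 51.4% and 88.0% unthinned.

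At equal depth Foxj2 was found in 3.09% (2.64 to 3.59) of wild-type and 8.22% (6.94 to 9.65) of p63-KO epithelial-like cells, against 5.69% of fibroblast-like cells, and in 17.1% and 58.5% unthinned. Sox15 was found in 2.39% (1.99 to 2.83) of wild-type cells but 0 of the 1654 from p63-KO, which allows up to 0.223%, and in 11.7% and 0.596% without thinning. Foxn1 was found in 1.23% and 0%, with 6.47% and 1.01% unthinned, and in fibroblast-like cells neither Sox15 nor Foxn1 was found after thinning. For Foxo1 and Foxp2 the order turned without thinning: Foxo1 was found in 19.8% and 11.1% at equal depth but in 64.0% and 72.2% at full depth, and Foxp2 in 8.92% and 6.05% but in 29.5% and 36.1%. Their fibroblast-like shares at equal depth were 12.5% and 76.5%.

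**Figure D2:**
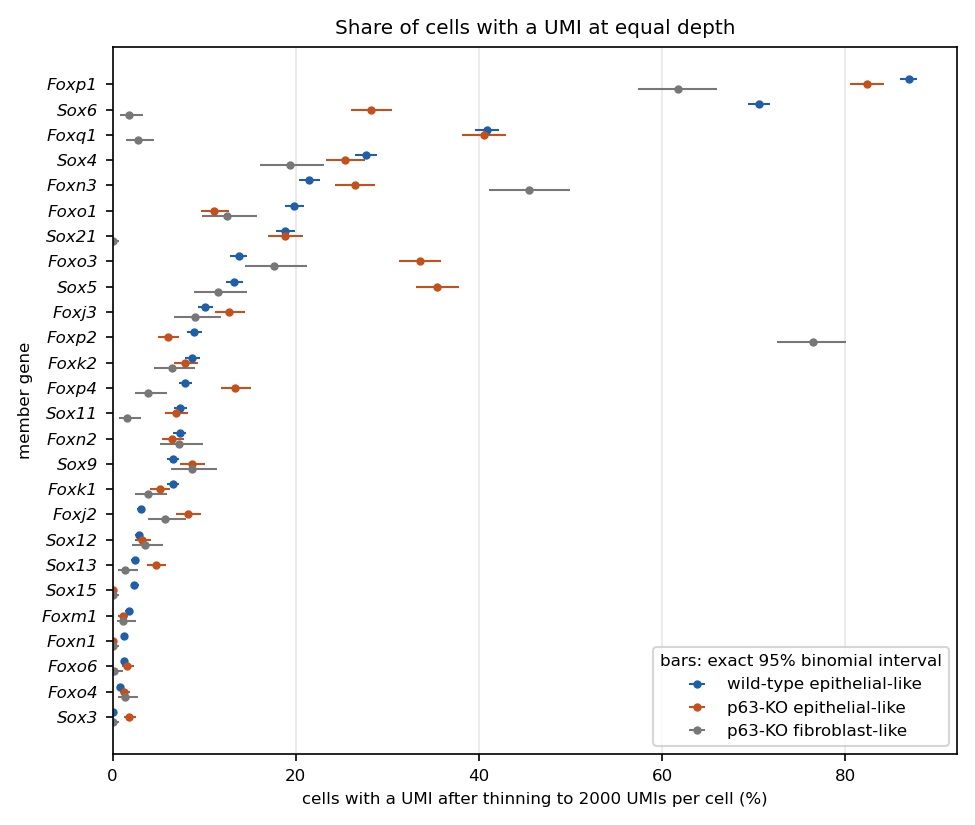
Share of cells (%) with a UMI of each member after thinning every cell to 2000 UMIs, for wild-type epithelial-like (blue), p63-KO epithelial-like (orange) and p63-KO fibroblast-like cells (grey), with exact 95% binomial intervals. Sox6 is at 70.6% in wild-type and 28.2% in p63-KO epithelium, Sox5 and Foxo3 lie to the right in p63-KO, and Foxp2 is found in 76.5% of fibroblast-like cells.

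Within the wild-type epithelium 15 of 23 measured members differed 2-fold or more between the superficial squamous-like subcluster and the largest, unnamed one. Epithelial-like cells were clustered within each library with all Fox and Sox genes kept out of the genes used, so that no member helped to form a subcluster. The superficial squamous-like subcluster 8 (385 cells) was set beside the unnamed subcluster 1 (1478 cells). Subcluster 1 is called Shh-led here after a late one of its leading genes, of which Kcnh1 was the first. In subcluster 8, 12 of the 23 members stood 2-fold or more below subcluster 1 and 3 above it. The same was true of 30.9% and 13.3% of all genes. The median log2 ratio was -1.10 for the members and -0.53 for all genes. The Krtdap-led subcluster 2 was also unnamed, and Krtdap came after Mctp1 among its leading genes. The place of subclusters 1 and 2 in the order used below was set by hand, not by the fixed markers. Where in the tissue these subclusters lie was not measured.

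Sox6 had 1336 CPM in the Shh-led and 1245 CPM in the basal-like subcluster 5, then 589 CPM in the Krtdap-led subcluster 2, 285 CPM in the suprabasal squamous-like and 141 CPM in the superficial squamous-like subcluster. That is 9.47-fold lower (8.94 to 10.0) in the superficial squamous-like than in the Shh-led cells. Sox4 had 254, 228, 127, 43.7 and 33.3 CPM in the same order, Sox12 23.2, 17.5, 5.24, 2.05 and 1.72 CPM, and Foxp1 1746, 1432, 1062, 704 and 579 CPM. Sox15 was 18.8-fold lower and Sox9 10.7-fold lower in superficial squamous-like than in Shh-led cells, and Sox5 5.54-fold lower. Sox9 did not follow the order fully, with 19.5 CPM in basal-like against 29.2 CPM in Krtdap-led cells.

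A few members were higher in the superficial squamous-like than in the Shh-led cells. Sox13 had 4.26 CPM in Shh-led and 35.0 CPM in superficial squamous-like cells, 8.22-fold higher (6.23 to 11). Foxo3 had 60.9 and 157 CPM, 2.57-fold higher, and Foxq1 248 and 410 CPM, 1.65-fold higher. Foxc1, a factor of mesenchyme and of hair follicle stem cells, had 0.279 CPM in Shh-led, 9.97 CPM (44 UMIs) in basal-like and 7.57 CPM (66 UMIs) in superficial squamous-like cells. Foxn1 had its highest level in between, 17.3 CPM in the Krtdap-led cells, 4.13-fold above the rest of the epithelium (3.37 to 5.06), 9.25 CPM in suprabasal squamous-like and 1.26 CPM in superficial squamous-like cells. Sox11 had 72.3 CPM in superficial squamous-like and 68.1 CPM in S phase-like cells, against 23.6 CPM in Krtdap-led cells. In basal-like cells Foxp2 reached 126 CPM, 3.10-fold above the other wild-type epithelial-like cells, and Sox5 156 CPM, 2.51-fold above them.

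**Figure D3:**
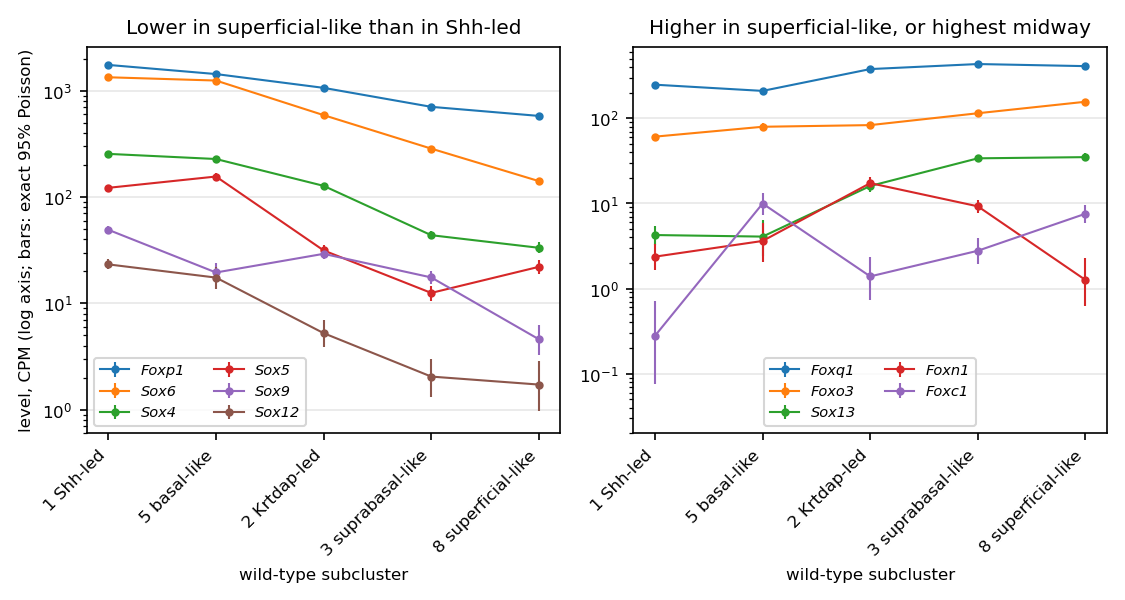
Level in CPM (log axis) of 11 members in 5 wild-type epithelial subclusters, with exact 95% Poisson intervals. The order from Shh-led and basal-like to superficial squamous-like was set by hand, and the fixed markers name neither the Shh-led nor the Krtdap-led subcluster. Foxp1, Sox6, Sox4, Sox5, Sox9 and Sox12 (left) are lower in the superficial squamous-like than in the Shh-led cells, while Foxq1, Foxo3, Sox13 and Foxc1 (right) are higher and Foxn1 is highest in the Krtdap-led cells.

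Set beside the other epithelial-like cells of its own library, the subclusters had between 1 and 15 members 2-fold or more apart, and the share of all genes past that line is given with each count. In wild type the Shh-led subcluster 1 had 3 of 24 measured members above (Sox5, Sox12 and Sox6; 2.47% of all genes) and 3 below (8.92%). The Krtdap-led subcluster 2 had Foxn1 above (0.697%) and 4 below (7.36%), and suprabasal squamous-like subcluster 3 had Sox13 above (5.57%) and 8 below (15.9%). S phase-like subcluster 4 had Sox12 above, at 36.7 CPM (6.63%), and 2 below (7.94%). Basal-like subcluster 5 had Foxc1, Foxp2 and Sox5 above (2.41%) and Sox13 and Foxm1 below (7.79%).

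The dividing and superficial wild-type states differed in other members. G2 and mitosis-like subcluster 6 had none above (2.2% of all genes) and Sox13 below (8.11%), and subcluster 7 had Foxm1 above (5.68%) and Sox13 below (8.16%). Superficial squamous-like subcluster 8 had Foxc1, Sox13 and Foxo3 above (9.12%) and 12 of 25 below (26.4%). Ciliated-like subcluster 9 had Foxn4 and Foxo6 above (13.5%) and Sox15 below (2.55%). In p63-KO the Plscr2-led subcluster 1 had Foxi2 and Sox3 below (8.41%) and no member above, as no gene was. G2 and mitosis-like subcluster 3 had Foxm1 above (2.4%) and 2 below (6.87%). The Cxcl15-led subcluster 4 had none above (0.502%) and Foxp2 below (8.19%), and suprabasal squamous-like subcluster 5 none above (0.707%) and Sox12 and Foxp2 below (9.63%). Mucous secretory-like subcluster 6 had none above (1.94%) and 4 below (7.63%), with Sox6 at 66.0 CPM. Ionocyte-like subcluster 9 had none below (3.98%), and ciliated-like subcluster 10 had Foxn4 and Foxo6 above (13.4%) and Foxo4 below (2.86%).

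In p63-KO the neuroendocrine-like subcluster 2 (262 cells, led by Chgb) had 8 of 26 measured members at least 2-fold above and 6 at least 2-fold below the other p63-KO epithelial-like cells, against 24.4% and 17.7% of all genes. Sox3, a SoxB1 factor of neural progenitors on the X chromosome, had 62.9 CPM (232 UMIs) there and 1.01 CPM elsewhere, 62.4-fold higher (47.5 to 82.9). Sox1, its SoxB1 relative and chosen after its values were seen, had 16.5 CPM there and 0.117 CPM elsewhere. A Sox3 UMI was found in 119 of these 262 cells and a Sox1 UMI in 28, with both in 18. In the whole epithelium Sox3 had 301 UMIs in p63-KO and 3 UMIs in wild type, a ratio of 95.2 (32.3 to 464). The wild-type library held no neuroendocrine-like subcluster, so its low Sox3 count and the absence of that state cannot be told apart.

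The same neuroendocrine-like cells had 859.9 CPM of Sox5, 4.93-fold above the rest (4.74 to 5.13). Foxp2 had 144 CPM there, 9.64-fold above, Sox12 65.3 CPM, 9.20-fold above, Sox11 91.3 CPM, 3.40-fold above, and Foxn3 419 CPM, 3.13-fold above. Foxd1, known from stromal progenitors of the kidney, had 10.6 CPM there and 0.788 CPM elsewhere. By contrast Foxq1 had 9.48 CPM against 402 CPM in the other cells, 42.3-fold lower (30.4 to 60.8), and Sox9 6.23 against 51.3 CPM, 8.23-fold lower. Foxo3 with 118 CPM, Sox21 with 53.6 CPM, Foxn2 with 16.5 CPM and Foxm1 with 0.813 CPM were also at least 2-fold lower. The Gzma-led subcluster 8 (85 cells), in which 6 neuroendocrine markers were found but whose leading genes differ, had the highest Sox4 level of any epithelial subcluster, 598 CPM, 4.06-fold above the rest, and 571 CPM of Sox5. Of its 25 measured members 4 stood 2-fold or more above the rest (Sox4, Sox5, Foxn3 and Foxa3, the last chosen after its values were seen) and 2 below (Foxq1 and Foxm1), against 12% and 9.62% of all genes.

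Foxi2, a relative of the ionocyte factor Foxi1, was not found in wild-type epithelial-like cells. The p63-KO epithelial-like cells held 322 Foxi2 UMIs, 4.46 CPM (3.99 to 4.98), which is at least 102-fold higher than the level of 3 UMIs in the wild type. Of these, 188 UMIs lay in ionocyte-like subcluster 7 (95 cells), at 78.7 CPM, 41.0-fold above the other p63-KO epithelial-like cells (32.7 to 51.6), and 84 UMIs in ionocyte-like subcluster 9 (74 cells), at 17.0 CPM. A Foxi2 UMI was found in 74 of the 95 cells of subcluster 7, and all 74 also held Foxi1. Of the 40 cells of subcluster 9 with Foxi2, 38 held Foxi1. The wild-type library held no ionocyte-like subcluster, so the absence of Foxi2 there and the absence of that state cannot be told apart.

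Subcluster 7 also had 373 CPM of Sox4, 2.48-fold above the other p63-KO epithelial-like cells. There 2 of 24 measured members were at least 2-fold higher and 9 at least 2-fold lower, against 11.4% and 16% of all genes. The lower members were led by Foxq1 with 28.5 CPM, 13.8-fold lower, and Foxj2 with 6.70 CPM, 6.44-fold lower. They also held Sox5 with 41.5 CPM, Sox21 with 32.7 CPM and Foxo1 with 24.7 CPM. Subcluster 9, the other ionocyte-like group, had 338 CPM of Foxq1 and 44.6 CPM of Foxj2, close to the p63-KO epithelium as a whole, and only Foxi2 among its 24 measured members was 2-fold higher (1.78% of all genes were).

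Within the epithelium of each library Foxm1 was highest in a G2 and mitosis-like subcluster. In wild type it had 52.3 CPM in G2 and mitosis-like subcluster 7, 7.66-fold above the other epithelial-like cells (6.65 to 8.83), and 18.3 and 19.0 CPM in G2 and mitosis-like subcluster 6 and S phase-like subcluster 4. The wild-type ciliated-like cells, not all of which clustered as ciliated jointly, had 21.3 CPM of Foxm1 (14.7 to 29.9), from 33 UMIs. In p63-KO it had 15.7 CPM in G2 and mitosis-like subcluster 3, 3.32-fold above the rest. The endothelial-like and the smooth muscle or pericyte-like cells of p63-KO had more Foxm1, 27.6 and 23.2 CPM. The p63-KO fibroblast-like subcluster 7 (26 cells, led by Mxd3, Esco2 and Aurkb) had 65.9 CPM. That is above the 52.3 CPM of the wild-type G2 and mitosis-like subcluster. Between the G2 and mitosis-like cells of the libraries Foxm1 was 2.52-fold lower in p63-KO. The p63-KO dividing cells had a median of 68531 UMIs, against 8983.5 and 15998 in the wild-type groups, and how this depth bears on the level was not tested.

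In ciliated-like cells, 54 in each library, Foxo6 had 13.6 CPM in wild type against 14.1 CPM in p63-KO, 2.35-fold and 2.44-fold above the other cells of the library. Foxn4, a factor of retinal and multiciliated cells that was chosen after its values were seen, had 11 of its 14 wild-type and 50 of its 58 p63-KO epithelial UMIs in these cells. Its level there was 7.1 CPM in wild type against 15.7 CPM in p63-KO. When both libraries were clustered together, the ciliated cluster held 26 wild-type and 55 p63-KO cells, so not all of the 54 wild-type cells fell in it, and the part of this in the levels was not tested.

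**Figure D4:**
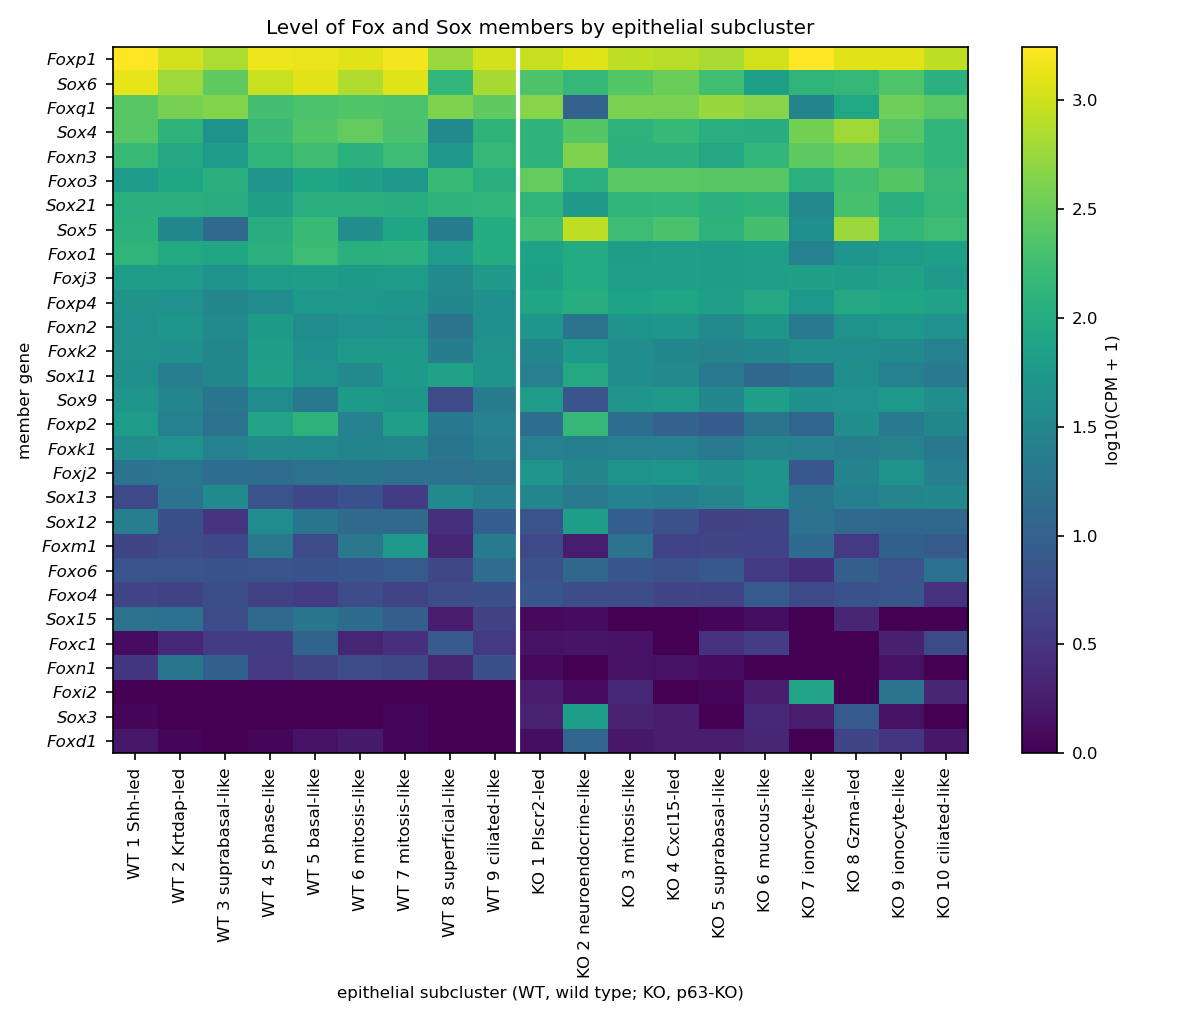
Level of 29 members as log10(CPM + 1) in 9 wild-type (left of the white line) and 10 p63-KO epithelial subclusters. Sox6 is brightest in wild type, Sox5 and Sox3 stand out in p63-KO neuroendocrine-like cells, Foxi2 in ionocyte-like cells, and Foxq1 is dark in the neuroendocrine-like and in ionocyte-like subcluster 7.

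The stroma of the p63-KO library had members of its own. Between fibroblast-like and epithelial-like cells of this library, 10 of 30 measured members were at least 2-fold higher in fibroblast-like cells, against 19.4% of all 12653 genes, and 7 at least 2-fold lower, against 20.4%. The median log2 ratio was -0.11 for the members and 0.02 for all genes. Foxf1 and Foxf2, Hedgehog-responsive factors of gut mesenchyme, had 112 CPM (103 to 121) and 49.9 CPM (44.3 to 56.0) in fibroblast-like cells. In epithelial-like cells they had 0.513 and 0.305 CPM, 218-fold (157 to 313) and 164-fold (106 to 266) less. Those traces were 0.458% and 0.611% of the fibroblast level, near the 0.332% to 0.421% of the collagen and Mfap4 transcripts.

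Foxp2 had 968 CPM (943 to 994) in fibroblast-like cells, 45-fold above the p63-KO epithelium (42.5 to 47.6), and ran from 701 to 1154 CPM over the 5 fibroblast-like subclusters. Foxc1 had 23.0 CPM and Foxd1 21.9 CPM, against 0.984 and 1.29 CPM in epithelial-like cells. Sox12 with 25.7 CPM and Foxn3 with 329 CPM were 2.56-fold and 2.22-fold higher than in the epithelium. The lower members were Sox21 with 1.74 CPM, Foxq1 with 14.3 CPM, Sox6 with 14.4 CPM, Foxp4 with 18.6 CPM, Foxo6 with 1.39 CPM, Sox13 with 10.4 CPM and Foxo3 with 104 CPM. Sox21 stood at 1.38% of its epithelial level, within the 1.35% to 1.90% at which Epcam, Cdh1, Krt8 and Krt15 were found in fibroblast-like cells, while Foxq1 stood at 3.74%. Sox5, at 105 CPM, and Foxj2, at 21.9 CPM, were 1.99-fold and 1.91-fold lower than in the epithelium, and Sox5 passed 2-fold in 4 of 7 alternative settings. Sox11 had 15.7 CPM and was 1.93-fold lower.

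Over the 5 fibroblast-like subclusters Foxf1 ran from 77.7 to 145 CPM and Foxd1 from 15 to 37.7 CPM. Subcluster 4 (97 cells, led by Prdm6, Adgrg6 and Ptx3) had 9 of 30 measured members at least 2-fold above the other fibroblast-like cells and none 2-fold below, against 8.03% and 4.88% of all genes. Its 9 higher members include Sox10 and Foxd3, which came from very few cells, as described below. Sox9 had 172 CPM there, 3.92-fold above (3.17 to 4.83), Foxf2 99.7 CPM, 2.48-fold above, Foxq1 47.2 CPM, 5.98-fold above, and Sox6 44.0 CPM, 5.04-fold above. A Sox6 UMI was found in 4.26% of all fibroblast-like cells. In all fibroblast-like cells the log2 ratio of Sox6 to the epithelium was -3.71, above the -4.65 of Foxq1. Without the 9 fibroblast-like cells with at least 3 glia markers, the Sox6 ratio fell below that of Foxq1. Over 7 alternative settings, this one included, the lowest Sox6 ratio was -5.32. The Sox6 level of the fibroblast-like cells thus rested in part on those 9 cells. The part of these cells in the Sox6 level of subcluster 4 was not tested. Foxl1, the forkhead gene of mesenchyme under the gut epithelium and chosen after its values were seen, had 9 of its 26 fibroblast UMIs in this subcluster.

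Sox10 and Foxd3, factors of neural crest and glia, were also counted among the 10 members higher in fibroblast-like cells, at 5.91 and 5.04 CPM, but came from very few cells. Cells with at least 3 of the 7 fixed glia markers numbered 9 of 516, and they held 32 of 34 Sox10 UMIs and 29 of 29 Foxd3 UMIs. Without these 9 cells, 8 of 28 measured members were at least 2-fold higher and 8 lower, against 19.1% and 20.6% of all genes, and Sox10 and Foxd3 were no longer among them. The 6 cells of subcluster 4 with a Sox10 UMI had no Sox9 UMI and 4519 CPM of glia markers, while the other 91 had 181 CPM of Sox9 and 18.1 CPM of glia markers. The Sox9 level of subcluster 4 was thus not lower without those cells. Foxd3 is outside the rule for named genes and was chosen after its values were seen.

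Endothelial-like cells carried the SoxF genes, which act in the formation of vessels and lymphatics. Sox18 had 134 CPM (113 to 158), Sox7 113 CPM (93.9 to 135) and Sox17 95.5 CPM (78.1 to 116) in 70 endothelial-like cells. In fibroblast-like cells Sox7 and Sox17 had no UMI and Sox18 had 1. Unthinned, a Sox18 UMI was found in 71.4%, a Sox7 UMI in 58.6% and a Sox17 UMI in 52.9% of endothelial-like cells. Of 32 measured members 8 were at least 2-fold higher in endothelial-like than in fibroblast-like cells and 11 lower, against 17.1% and 19.3% of all genes. Besides the SoxF genes, Foxo1 had 315 CPM (283 to 350), Sox11 149 CPM (127 to 174), Foxn3 460 CPM (421 to 502) and Sox13 49.6 CPM, and Foxp2 had 16.5 CPM. Sox9, Foxf2 and Foxd1 had no UMI in these cells, which allows up to 3.39 CPM by the exact interval.

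Smooth muscle or pericyte-like cells (73 cells) resembled the fibroblast-like cells in Foxf1, with 115 CPM, and Foxp2, with 819 CPM, and had 91.4 CPM of Foxf2. Their 2 subclusters differed. Subcluster 6 (49 cells, led by Ckm and Acta1) had 1011 CPM of Foxp2, 137 CPM of Foxf1 and 28.8 CPM of Sox5. The pericyte-marker subcluster 8 (24 cells, led by Higd1b) had 137 CPM of Foxp2, 34.2 CPM of Foxf1 and 1189 CPM of Sox5, the highest Sox5 level among the epithelial subclusters and those of the p63-KO stroma.

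**Figure D5:**
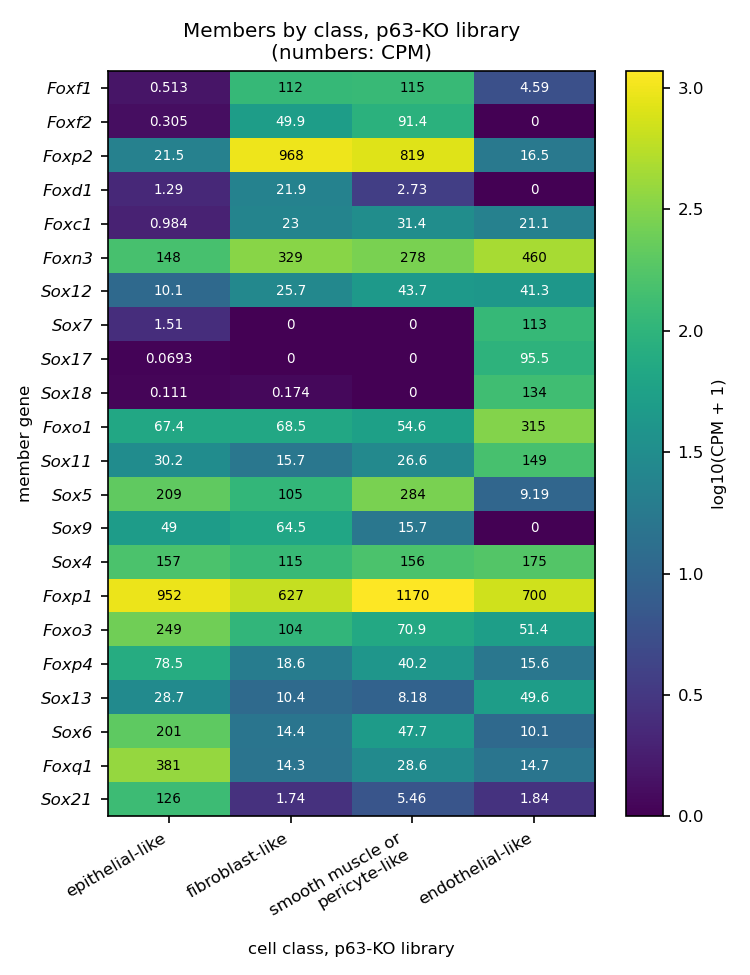
Level of selected members in the epithelial-like, fibroblast-like, smooth muscle or pericyte-like and endothelial-like cells of the p63-KO library, coloured as log10(CPM + 1) with the CPM printed in each field. FoxF genes and Foxp2 are high in fibroblast-like and smooth muscle or pericyte-like cells, SoxF genes in endothelial-like cells, and Sox21, Foxq1 and Sox6 in epithelial-like cells.

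Genes linked to these factors were listed by textbook roles and described the same way. Of 20 FOXM1-linked mitosis genes, all 20 were measured in the epithelium, 13 stood at or below 0.5 of wild type in p63-KO and none 2-fold above, against 7.87% and 14% of all genes; the median log2 ratio was -1.10. Top2a had 154 and 64.1 CPM, Cenpf 131 and 60.8 CPM and Aurkb 32.7 and 12.1 CPM, beside 11.5 and 7.38 CPM of Foxm1. These are summed levels, and the libraries differed in their dividing cells. In wild type the S phase-like subcluster held 9.76% and the G2 and mitosis-like ones 8.61% and 8.40% of epithelial-like cells. In p63-KO the G2 and mitosis-like subcluster held 14.1%, and no subcluster was named S phase-like. How this bears on the mitosis genes was not tested. Of 19 measured FoxO-linked genes, 4 were at least 2-fold higher (Klf2, Fbxo32, Gadd45a and Irs2) and 1 lower (Sesn3), against the same 14% and 7.87% of all genes, with a median of 0.07. Klf2, a quiescence factor of blood vessels and lymphocytes, had 7.20 and 81.0 CPM, and the atrophy-linked ubiquitin ligase gene Fbxo32 14.0 and 78.8 CPM. Sesn3, a stress-induced sestrin gene, had 98.7 and 34.8 CPM. Of the 16 Groucho, nuclear receptor corepressor and Sox partner genes, 2 were 2-fold higher (Tle1 and Tle2) and 2 lower (Tle4 and Tcf7l2), 12.5% each against 14% and 7.87%, with a median of 0.05. Tle4 had 232 and 70.3 CPM.

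Hedgehog and stromal genes listed with FoxF and FoxL factors were measured at 4 of 16 in the epithelium, and 3 of those lay 2-fold or more below wild type (Gli3, Gli2 and Ptch1), as did 7.87% of all genes. Between fibroblast-like and epithelial-like cells of p63-KO, 13 were measured and 12 stood 2-fold or more above the epithelium, against 19.4% of all genes; their median log2 ratio was 4.29. Tcf21, a factor of visceral mesenchyme, had 193 CPM and the Hedgehog effector Gli2 120.0 CPM in fibroblast-like cells, beside the 112 CPM of Foxf1. The list holds genes chosen as stromal, so its excess in fibroblast-like cells follows largely from that choice. That excess says nothing about the FoxF genes. Of the cartilage-type matrix genes listed with Sox9, Sox5 and Sox6, 2 of 11 were measured in the epithelium, with Col11a1 lower (17.4 and 8.08 CPM) and Hapln1 higher (0.555 and 5.67 CPM), while Col2a1 stayed at 0.102 and 0.0416 CPM. In endothelial-like cells the 12 genes listed with SoxF factors ran from 53.3 CPM for Notch4 to 1492 CPM for Flt1, with 1151 CPM of Cdh5 and 300 CPM of Cldn5. Cdh5, Cldn5, Kdr, Egfl7 and Emcn are among the fixed markers that named this class, and Flt1 was a leading gene of its subcluster. Their high levels there follow from the naming and say nothing about the SoxF genes. Of the 10 genes listed with Sox10, 3 were measured in the epithelium, and only Ret, a receptor of neurons that other cells also use, was 2-fold higher in p63-KO (2.12 and 11.2 CPM).

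The 21 members not described by the rule were scarce in the summed classes, although Sox1 and Foxn4 reached 16.5 and 15.7 CPM in single p63-KO states. None exceeded 1.39 CPM in the summed epithelial-like cells of either library or 7.5 CPM in a stromal class. No UMI of 5 members was counted in either library, and 8 had none in the kept epithelial-like cells. A level this low at this depth does not show that a gene is silent. Among the members described, gene length ran from 1414 bp for Sox15 to 953553 bp for Sox5 in the 25 measured in the epithelium. Whether intronic reads were counted, and by strand, is not given in the sources used here, so reads from genes that overlap Sox5, Sox6 or Sox15 on the other strand may not be told apart.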

How the data were processed

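Single cells of E18.5 esophageal epithelium were analysed from 1 wild-type and 1 p63-KO library. The deposited values are whole-number UMI counts per gene and barcode, made by the authors with Cell Ranger 7.1.0 on mm10, per the submitters' processing notes; for annotation, cell calling and intron counting the sources used here give nothing. The libraries held 76472445 and 86504624 UMIs in 6034 and 2821 barcodes. Filters of 500 genes and 1000 UMIs as minimum and 10% mitochondrial UMIs as maximum passed 5787 and 2422 cells, from which 268 and 47 simulated-neighbour doublets were removed. Of 100 planted doublets per library, 25% and 30% were called, so doublets remain. Cells were clustered jointly without integration and then per library (2000 variable genes without any Fox or Sox gene, 30 components, 20 neighbours, Leiden resolution 1 jointly and in stroma, 0.6 in epithelium; leidenalg 0.10.2, scikit-learn 1.9.0, scipy 1.17.1, Python 3.11.15). Naming a cluster took 3 or more markers, each present in 25% or more of the cells; this limit was set with the clusters in view. UMIs were summed per class and scaled to CPM; a gene was measured from 5 CPM in either group, and log2 ratios have 1 CPM added. With 1 library per group no test was made. Against a level of 0, folds used 3 counts in the summed cells as floor. The calculation was tested on simulated data.

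Described by name was every member with at least 5 CPM in the epithelium of either library or with 20 CPM and 20 UMIs in any class or epithelial subcluster of 20 cells; others are named as chosen after seeing their values. The members and gene lists were chosen with earlier results of these data known. Annotation was GENCODE M21, in which all 57 members matched, and upstream sequences are those of RefSeq on GRCm38.p6, with entries for 37 members. Alternatives changed the pseudocount, doublet removal, scaling, weighting, choice of cells, clustering genes, cell filter, level cut and thinning. The values of 1 member are not reported here, though it is included in the counts.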

Additional observations from a re-analysis of the deposited data

How the results depend on the processing

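The 3 members at least 2-fold higher in p63-KO epithelium became 5 without the 50 most abundant genes in the total, with every cell weighing equally, when cells were picked by an Epcam or Cdh1 UMI, without S phase and mitosis subclusters, and in cells with a Y-linked and no Xist UMI, and 6 when members were measured from 1 CPM. The 4 lower members became 2 when measured from 20 CPM, which leaves out Sox15 and Foxn1 by construction. The median log2 ratio was -0.048 without the ciliated, neuroendocrine and ionocyte subclusters. From 1 CPM, 11 members were at least 2-fold lower in fibroblast-like cells, where 7 had been. Foxp2 turned direction, to a log2 ratio of 0.15, with the Epcam or Cdh1 choice, which also barred Col1a1, Col3a1, Pecam1 and Ptprc UMIs and left 480 p63-KO and 5075 wild-type cells, where 1677 and 5367 had been, and the cause was not tested. Sox5, Sox6, Foxo3, Sox15 and Foxn1 stayed past 2-fold in the same direction in all 12 alternatives and Foxj2 in 11. Over all named members, 302 of 432 recomputed epithelial ratios and 208 of 252 stromal ratios stayed within their counting interval. Letting Fox and Sox genes into the clustering moved none of the 6 counts and medians past these limits. The alternatives without dividing cells, by Xist or Y-linked RNA and without glia-marker cells were chosen after seeing the data. No paired analysis was possible because each group had 1 library. Depth limits members under about 5 CPM, and stromal classes of 70 to 73 cells have wide intervals.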

Other observations

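The wild-type library held 11 fibroblast-like cells with 65811 UMIs in all, too few for a comparison. They had 79 UMIs of Foxp2, 1200.4 CPM (950.4 to 1496), 8 of Foxf1, 122 CPM (52.5 to 240), and 20 of Foxn3, 304 CPM, beside 968, 112 and 329 CPM in p63-KO fibroblast-like cells. Foxf2 had no UMI, which allows up to 56.1 CPM, and Foxd1 had 4 UMIs. Krt15, an epithelial keratin, had 1565 CPM in these cells and 73.8 CPM in p63-KO fibroblast-like cells. The unnamed low-depth subcluster 9 of the p63-KO library (22 cells, median 1906 UMIs, led by Ascl3, Stap1 and Atp6v0d2) had 38.4 CPM of Foxi2.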
